A study of Homo sapiens with 6 samples.

Results

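The thioredoxin and peroxiredoxin system was followed through 10 genes chosen by symbol from the 26789 genes of the table: TXN, TXNRD1 and TXNIP of the thioredoxin branch, the peroxiredoxins PRDX1 to PRDX6, and SRXN1. Each symbol occurred once. RNA came from 6 samples of SK-N-SH, a human neuroblastoma cell line labelled wild type, of which 3 were controls kept in medium alone and 3 were treated with dopamine, all for 6 h. The dopamine dose is printed in the labels with an implausible unit and is not given here, and the series text calls the treated cells SH-SY5Y, a subline of SK-N-SH, where all 6 sample labels say SK-N-SH. Nothing in the labels says that the numbered replicates were separate cultures, so p-values here rest on sample-to-sample spread that may be only technical.

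Thioredoxin is a small protein that reduces disulfide bonds in other proteins, and thioredoxin reductase, a selenoprotein, restores it with electrons from NADPH. Peroxiredoxins reduce hydrogen peroxide through a reactive cysteine and are for the most part recharged by thioredoxin. TXNIP binds reduced thioredoxin and inhibits it, and sulfiredoxin repairs peroxiredoxins whose cysteine has been over-oxidised. Several genes of the system are known targets of NRF2, a transcription factor that answers oxidants and electrophiles, and dopamine is a catechol that oxidises to quinones and gives rise to peroxide.

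Values were FPKM, the fragments of a gene per kilobase of its length and scaled to the library's total, so levels can be set beside each other between genes. Library totals recovered from the steps between low values ran from 19394000 to 24233000 fragments, so that each FPKM of a 1 kb gene rested on 19.4 to 24.2 fragments. All 10 sympathoadrenal and neuronal markers had a mean of at least 1 FPKM, summing to 338 to 384 FPKM in control and 338 to 387 FPKM in dopamine libraries. Within this sum STMN2 was higher with dopamine (23.6 to 26.3 and 31.5 to 41.6 FPKM) and PHOX2A lower (80.3 to 84.6 and 65.2 to 73.6 FPKM). The others overlapped between the groups. The 3 immune markers in the table summed to at most 0.0604 FPKM and the 2 endothelial ones to at most 0.972 FPKM. Mesenchymal markers summed to 1512 to 1704 FPKM in control and 1473 to 1547 FPKM in dopamine libraries. Of these SNAI2 was higher with dopamine (15.2 to 17.4 and 21.2 to 25.2 FPKM). COL1A2 was lower but never above 0.113 FPKM, and the rest overlapped. Of 6 epithelial markers EPCAM and CDH1 stayed at or under 0.197 FPKM, while the sum, mostly KRT18, was 140 to 175 FPKM in control and 105 to 121 FPKM in dopamine libraries. Nuclear-retained RNAs (4 in the table) summed to 2.30 to 2.96 and 2.93 to 5.40 FPKM. What part these had in the results was not tested. The libraries differed in how values depended on GC content. The slope was taken on each gene's deviation from its mean over the 6 libraries. It is thus relative, and the opposite signs of the group means follow from this centring. Per 10 points of GC it was 0.02 to 0.22 log2 units in control and -0.26 to -0.03 in dopamine libraries. The groups were apart in it, with control replicate 3 and dopamine replicate 3 at the ends. Because of this slope, members are also given after both GC content and transcript length were corrected for.

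Of the 10 genes, 9 passed the filter of a mean of at least 1 FPKM and were tested among 11791 genes (limma on log2(FPKM + 0.5), two-sided, Benjamini-Hochberg adjusted over all of them, threshold 0.05). TXNRD1 alone rose and none fell, where 0.102% of all tested genes passed in either direction, 0.0848% as higher and 0.017% as lower. At an unadjusted p under 0.05 lay 6 of the 9 (5 higher, 1 lower), against 32.5% of all tested genes (3829). That count of members was 4 after the GC and length correction (2619 of 11679 genes), 3 after median-of-ratios scaling (3650 genes), 2 with control replicate 3 left out (1937), 4 when control replicate 2 was left out (2268), 4 when dopamine replicate 2 was (3290) and 3 with both replicates numbered 3 left out (1541). The dopamine values of 4 genes lay above all control values and those of 1 gene below, against 24.4% and 14.1% of all tested genes (38.4% in either direction). A higher mean log2 value with dopamine was seen in 7 of the 9, against 60.0% of all tested genes. The median log2 fold change of the 9 was 0.24, and that of all tested genes 0.08. After the GC and length correction 7 of the 9 were again higher, against 77.6% of all genes, and the medians were 0.18 and 0.10. After median-of-ratios scaling 6 of the 9 were higher, against 50.0%, with medians of 0.14 and 0.00. These counts are a description, since the members were chosen with earlier results of these data known, and in RNA from whole cultures fewer cells expressing a gene and less RNA per cell cannot be told apart.

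**Figure D1:**
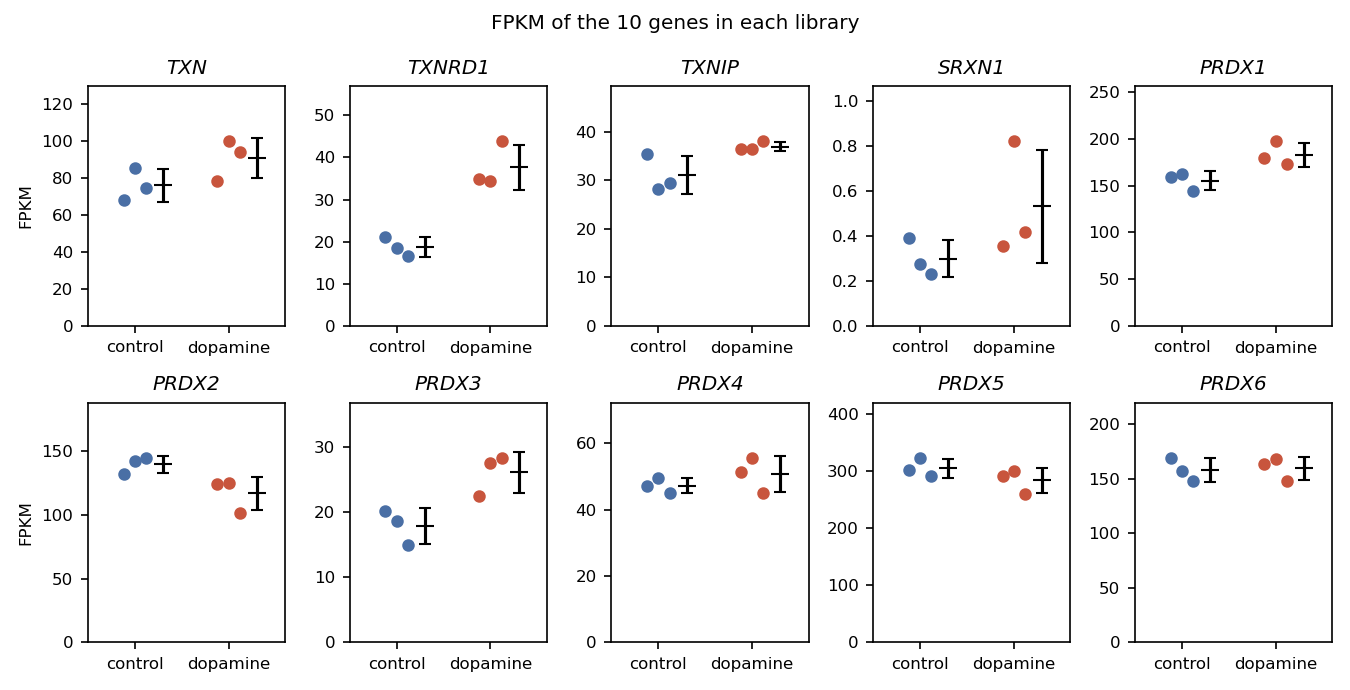
FPKM (vertical axis, each panel from 0 on its own scale) of the 10 genes in the 3 control (blue) and 3 dopamine (red) libraries, with points in the order of replicate number from left to right and the mean and SD of each group in black. The TXNRD1 groups lie far apart, at 16.6 to 21.2 and 34.4 to 43.8 FPKM, while those of PRDX6 and PRDX4 overlap.

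TXNRD1 (ENSG00000198431.11, hg19 chromosome 12, 104609557 to 104744061) encodes the cytosolic thioredoxin reductase. Its promoters are shown because it was the member that rose and because NRF2 is known to act through the antioxidant response element, whose core can be written TGACNNNGC. RefSeq (GRCh38.p14) windows from 250 bases before to 50 bases after a transcription start were found for 8 of the 10 genes, 11 windows in all, with none for PRDX1 and PRDX6. On either strand TGACNNNGC was found in 2 of these windows, both of TXNRD1, and in 13.3% of 35116 windows of all genes. The E-box CACGTG was found in 1 window each of PRDX3 and PRDX4, and in 7.26% of all windows. No window of the 8 genes held both motifs, so they did not overlap. The first 260 bases of 3 windows follow, with motif matches in capitals, on the plus strand at chr12:104215529-104215788 and chr12:104286782-104287041 for TXNRD1 and on the minus strand at chr10:119178803-119179062 for PRDX3, the tested member with the next largest difference.
TXNRD1, first start: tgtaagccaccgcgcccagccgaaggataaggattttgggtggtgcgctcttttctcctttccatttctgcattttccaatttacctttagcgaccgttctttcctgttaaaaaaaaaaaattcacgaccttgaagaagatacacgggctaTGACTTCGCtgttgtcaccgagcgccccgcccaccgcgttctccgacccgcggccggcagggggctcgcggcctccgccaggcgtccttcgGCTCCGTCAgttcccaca
TXNRD1, second start: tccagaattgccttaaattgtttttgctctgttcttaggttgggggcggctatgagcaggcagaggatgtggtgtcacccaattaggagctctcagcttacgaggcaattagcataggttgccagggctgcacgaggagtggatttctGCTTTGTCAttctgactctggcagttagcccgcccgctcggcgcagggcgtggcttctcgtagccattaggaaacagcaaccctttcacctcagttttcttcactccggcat
PRDX3: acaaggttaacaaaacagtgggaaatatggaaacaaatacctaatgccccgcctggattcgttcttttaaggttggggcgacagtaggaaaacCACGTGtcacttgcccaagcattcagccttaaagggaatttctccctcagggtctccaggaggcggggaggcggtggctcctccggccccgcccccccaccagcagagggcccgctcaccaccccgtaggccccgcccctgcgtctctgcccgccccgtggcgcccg
In the first TXNRD1 window the matches were TGACTTCGC on the gene's strand, beginning at -99 from the start, and GCTCCGTCA, a match on the opposite strand, beginning at -8. The second window held GCTTTGTCA, a match on the opposite strand, beginning at -102. A match is a sequence of letters and not evidence of binding, and gene-level FPKM does not say which start was used.

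TXNRD1 stood at 21.2, 18.6 and 16.6 FPKM in control replicates 1, 2 and 3, and at 34.8, 34.4 and 43.8 FPKM in dopamine replicates 1, 2 and 3. Every dopamine library was above every control library, and dopamine replicate 3 was the highest. The means were 18.8 ± 2.31 and 37.7 ± 5.31 FPKM (SD, n = 3 per group), a log2 fold change of 0.98 (SE 0.12, 95% interval 0.72 to 1.25) or 1.98-fold, with an adjusted p of 0.0199 (limma). By p it was number 8 of the 11791 genes and by size of rise number 11. After the GC and length correction the log2 fold change was 0.83 (SE 0.08, adjusted p = 0.00414, limma). The call held in 14 of 21 alternative settings, and the log2 fold change lay between 0.79 and 1.07 in all 21. The adjusted p (limma) was above the threshold when any of 4 libraries was left out, namely control replicate 2 (0.217), control replicate 3 (0.0526), dopamine replicate 1 (0.0576) and dopamine replicate 3 (0.0673). The deposited interval of TXNRD1 also holds RPL18AP3, a ribosomal protein pseudogene, the gene EID3 at no more than 0.165 FPKM, and an antisense RNA of at most 1.03 FPKM. RPL18AP3 stood at 49.1, 54.8 and 53.3 FPKM in control and 45.4, 48.6 and 38.4 FPKM in dopamine libraries. Its part in the TXNRD1 values was not tested.

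TXN (ENSG00000136810.8, chromosome 9, 113006091 to 113018920) encodes cytosolic thioredoxin, the substrate of this reductase. Its values were 67.9, 85.7 and 74.6 FPKM in control and 78.6, 99.9 and 94.2 FPKM in dopamine libraries. The groups overlapped, since control replicate 2 was above dopamine replicate 1. The log2 fold change was 0.25 (SE 0.11, 95% interval 0.00 to 0.51) and did not pass (adjusted p = 0.154, limma), and after the GC and length correction it was 0.19 (95% interval -0.02 to 0.40). With sample quality weights it was 0.15 and after median-of-ratios scaling 0.16. The ratio of TXN to TXNRD1 FPKM within a library does not depend on its scaling. Their longest transcripts are close in GC content (42.8 and 44.8%) but not in length (869 and 4277 bases). This ratio was 3.21, 4.62 and 4.50 in control and 2.26, 2.90 and 2.15 in dopamine libraries, so each dopamine library held less TXN per TXNRD1 than any control library.

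TXNIP (ENSG00000117289.7, chromosome 1, 145438469 to 145442635) encodes the thioredoxin-interacting protein, an inhibitor of thioredoxin whose transcription is known to follow glucose supply. It stood at 35.5, 28.1 and 29.5 FPKM in control and at 36.3, 36.4 and 38.0 FPKM in dopamine libraries. The groups did not overlap, but control replicate 1 came within 1 FPKM of the dopamine libraries. This log2 fold change, 0.25 (SE 0.09, 95% interval 0.04 to 0.47), did not pass (adjusted p = 0.124, limma). After the GC and length correction it was 0.07 (95% interval -0.09 to 0.24), after median-of-ratios scaling 0.16, and without control replicate 1 it was 0.35 with an adjusted p of 0.0351, in a setting where 18.5% of all genes passed. TXNIP per TXN was 0.523, 0.328 and 0.396 in control and 0.462, 0.364 and 0.403 in dopamine libraries, so the dopamine values lay inside the control range.

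SRXN1 (ENSG00000271303.1, chromosome 20, 627259 to 634014) encodes sulfiredoxin, the repair enzyme of over-oxidised peroxiredoxins. It was the lowest of the 10 genes, at 0.392, 0.275 and 0.233 FPKM in control and 0.358, 0.822 and 0.416 FPKM in dopamine libraries, and did not reach the filter. The groups overlapped, and dopamine replicate 2 stood apart from the other libraries. With the 2698 bases of its longest GENCODE 29 transcript these values stand for about 24, 18 and 13 fragments in control and 20, 43 and 24 in dopamine libraries. With the filter lowered to a mean of 0.3 FPKM its log2 fold change was 0.35 (SE 0.19, 95% interval -0.09 to 0.78, adjusted p = 0.254, limma), an interval that includes 0.

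**Figure D2:**
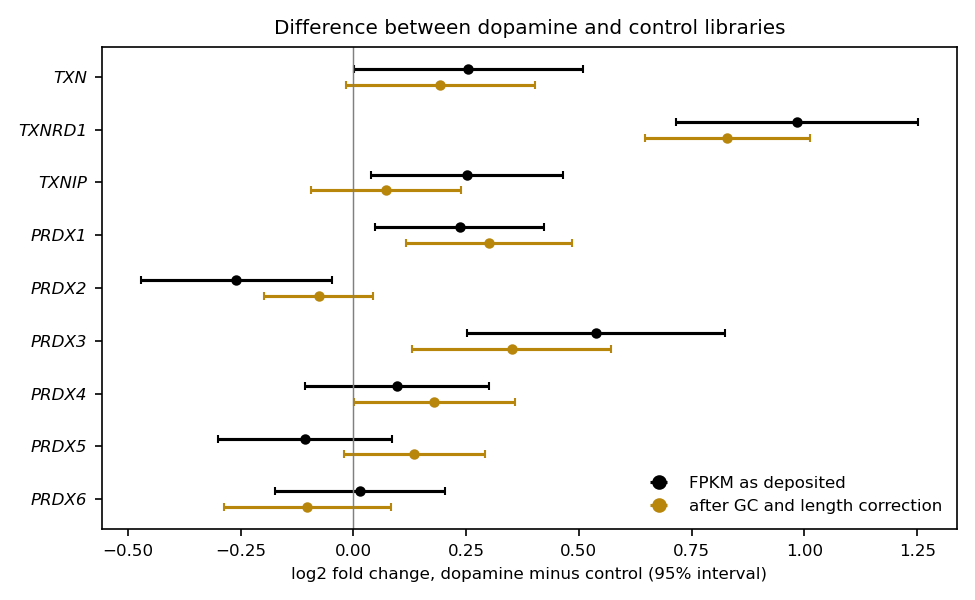
Log2 fold change of log2(FPKM + 0.5), dopamine minus control (horizontal axis), of the 9 tested genes, with 95% intervals from limma, for the values as deposited (black) and after the GC and length correction (gold). TXNRD1 is the farthest from 0 in both, and PRDX5 and PRDX6 lie on opposite sides of 0 in black and gold.

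PRDX1, PRDX2 and PRDX6 encode the peroxiredoxins found mainly in the cytosol. PRDX1 (ENSG00000117450.9, chromosome 1, 45976708 to 45988719), which encodes a typical peroxiredoxin recharged by thioredoxin and is a known NRF2 target, stood at 160, 163 and 144 FPKM in control and 179, 197 and 173 FPKM in dopamine libraries. All dopamine libraries were above all control libraries. The log2 fold change of 0.24 (SE 0.08, 95% interval 0.05 to 0.42) did not pass (adjusted p = 0.117, limma), and it was 0.30 (95% interval 0.12 to 0.49) after the GC and length correction and 0.14 after median-of-ratios scaling.

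PRDX2 (ENSG00000167815.7, chromosome 19, 12907634 to 12912694), a close relative of PRDX1 that is abundant in red cells and neurons, stood at 132, 142 and 144 FPKM in control and 124, 124 and 102 FPKM in dopamine libraries. All dopamine libraries were below all control libraries, with dopamine replicate 3 the lowest. Its log2 fold change of -0.26 (SE 0.09, 95% interval -0.47 to -0.05) did not pass (adjusted p = 0.12, limma), and it was -0.08 (95% interval -0.20 to 0.04) after the correction. Without dopamine replicate 3 it was -0.16, and -0.14 with both replicates numbered 3 left out. Its deposited interval lies within that of HOOK2, at 3.15 to 3.96 FPKM, and overlaps an antisense RNA of 1.22 to 5.20 FPKM. The pseudogene PRDX2P4, which may share fragments with PRDX2, stood at 0.954, 1.03 and 0.645 FPKM in control and 0.402, 0.258 and 0.234 FPKM in dopamine libraries. Within a library the ratio of PRDX1 to PRDX2 was 1.21, 1.15 and 0.999 in control and 1.45, 1.59 and 1.70 in dopamine libraries, again without overlap, between transcripts that differ in GC content (51.4 and 56.7%).

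PRDX6 (ENSG00000117592.8, chromosome 1, 173446405 to 173457946) encodes the peroxiredoxin that works with a single reactive cysteine, is recharged by glutathione in place of thioredoxin, and also acts on phospholipids. It stood at 169, 157 and 148 FPKM in control and 163, 168 and 148 FPKM in dopamine libraries, and the groups overlapped almost wholly. The log2 fold change was 0.01 (SE 0.08, 95% interval -0.17 to 0.20, adjusted p = 0.909, limma), and -0.08 after median-of-ratios scaling and -0.10 (95% interval -0.29 to 0.08) after the GC and length correction. TXNRD1 and PRDX6 transcripts are close in GC content (44.8 and 45.2%) but not in length (4277 and 1751 bases). The ratio of their FPKM was 0.125, 0.118 and 0.112 in control and 0.213, 0.205 and 0.296 in dopamine libraries.

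PRDX3 (ENSG00000165672.5, chromosome 10, 120927215 to 120938345) encodes the peroxiredoxin of the mitochondrial matrix, which is recharged by the mitochondrial thioredoxin. It stood at 20.2, 18.6 and 14.9 FPKM in control and 22.5, 27.6 and 28.3 FPKM in dopamine libraries. The groups did not overlap, and the gap between control replicate 1 and dopamine replicate 1 was the smallest. PRDX3 had a log2 fold change of 0.54 (SE 0.13, 95% interval 0.25 to 0.82) and did not pass (adjusted p = 0.11, limma). After the GC and length correction it was 0.35 (95% interval 0.13 to 0.57, adjusted p = 0.13, limma). Without control replicate 1 it was 0.63 with an adjusted p of 0.0304 (limma), in a setting where 18.5% of all genes passed. With both replicates numbered 3 left out it was 0.35. The PRDX3 and TXN transcripts are alike in GC content (43.1 and 42.8%) but not in length (2277 and 869 bases). Per TXN, PRDX3 was 0.297, 0.217 and 0.200 in control and 0.286, 0.276 and 0.301 in dopamine libraries, where control replicate 1 lay among the dopamine libraries.

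PRDX5 (ENSG00000126432.9, chromosome 11, 64085560 to 64089283), an atypical peroxiredoxin of mitochondria, peroxisomes and cytosol, was the highest of the 10 genes. It stood at 302, 323 and 290 FPKM in control and 291, 299 and 259 FPKM in dopamine libraries, and the groups overlapped. The log2 fold change was -0.11 (SE 0.09, 95% interval -0.30 to 0.08, adjusted p = 0.381, limma), and it turned to 0.14 (95% interval -0.02 to 0.29) after the GC and length correction. It was -0.05 without dopamine replicate 3, -0.07 without control replicate 2 and -0.20 after median-of-ratios scaling. PRDX4 (ENSG00000123131.8, chromosome X, 23682379 to 23704516), which encodes the peroxiredoxin of the endoplasmic reticulum, stood at 47.2, 49.4 and 45.0 FPKM in control and 51.4, 55.6 and 44.9 FPKM in dopamine libraries. The groups overlapped, with dopamine replicate 3 the lowest of all 6 libraries. The log2 fold change was 0.10 (SE 0.09, 95% interval -0.11 to 0.30, adjusted p = 0.46, limma), and after the GC and length correction 0.18 (SE 0.08, 95% interval 0.00 to 0.36, adjusted p = 0.221, limma). Without dopamine replicate 3 it was 0.18, with both replicates numbered 3 left out 0.15, without control replicate 3 0.06, without dopamine replicate 2 0.03 and after median-of-ratios scaling 0.01. PRDX1 per PRDX4, transcripts of nearly equal GC content (51.4 and 51.7%), was 3.38, 3.29 and 3.20 in control and 3.49, 3.55 and 3.84 in dopamine libraries, so the groups were apart by a small margin.

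The order of levels over all 6 libraries was PRDX5 (294 FPKM on average), PRDX1 (169), PRDX6 (159), PRDX2 (128), TXN (83.5), PRDX4 (48.9), TXNIP (34.0), TXNRD1 (28.2), PRDX3 (22.0) and SRXN1 (0.416). PRDX1 and PRDX6 were not apart in control libraries, where their values interleaved, and were apart in dopamine libraries, where every PRDX1 value was above every PRDX6 value. TXNIP was above TXNRD1 in every control library, whereas with dopamine the ratio of TXNRD1 to TXNIP was 0.959, 0.946 and 1.15, so that the pair stood near the same level.

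Summed over PRDX1 to PRDX6 the level was 823 ± 33.0 FPKM in control and 819 ± 59.7 FPKM in dopamine libraries (SD, n = 3 per group), a difference far inside the spread. The make-up of that sum differed. PRDX1 held 19.2, 19.1 and 18.3% of it in control and 21.6, 22.6 and 22.9% in dopamine libraries, and PRDX3 held 2.17 ± 0.269% and 3.21 ± 0.527% (SD, n = 3 per group). PRDX2 held 15.9, 16.6 and 18.4% in control and 14.9, 14.3 and 13.5% in dopamine libraries, and PRDX5 held 36.4, 37.9 and 36.9% and then 35.0, 34.3 and 34.3%. PRDX4 held 5.74 ± 0.0536% and 6.17 ± 0.209%. These 5 shares did not overlap between the groups in the values as deposited, whereas that of PRDX6 did, at 19.2 ± 1.05% and 19.5 ± 0.209%. After the GC and length correction PRDX1 held 19.2 ± 0.687% in control and 22.1 ± 0.490% in dopamine libraries and PRDX2 16.5 ± 0.948% and 14.6 ± 0.374%, still apart, as was PRDX3 at 2.40 ± 0.119% and 2.87 ± 0.207%. The corrected shares of PRDX4 overlapped, at 5.68 to 5.86% in control and 5.85 to 6.37% in dopamine libraries. PRDX5 held 35.4 ± 0.494% and 36.3 ± 1.51%, the other way round and overlapping, and PRDX6 held 20.8 ± 0.609% and 18.1 ± 1.39%, now apart. These shares are descriptions with no test. Within a library they add up to the whole, so they are not separate results. For comparison, the values of 38.4% of all tested genes did not overlap between the groups as deposited.

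**Figure D3:**
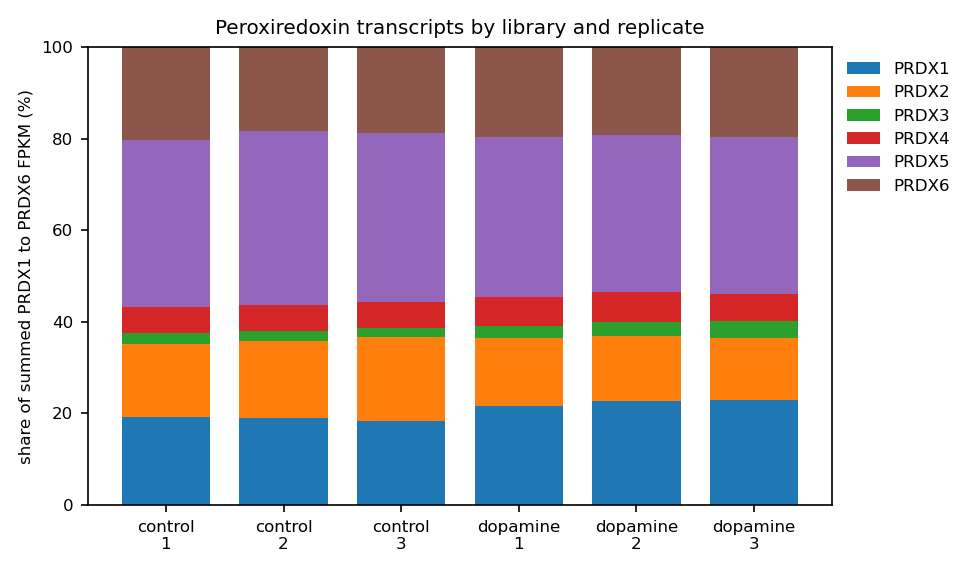
Share of each peroxiredoxin in the summed FPKM of PRDX1 to PRDX6 (vertical axis, percent), 1 bar per library, for the values as deposited. The PRDX1 segment is 18.3 to 19.2% in control and 21.6 to 22.9% in dopamine libraries, and PRDX5 is the largest segment in all 6.

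GC content moved with these differences. The members with the lowest GC content, TXN, PRDX3, TXNIP, TXNRD1 and PRDX6 (42.8 to 45.2%), had log2 fold changes of 0.01 to 0.98, PRDX1 and PRDX4 (51.4 and 51.7%) had 0.24 and 0.10, and PRDX2 and PRDX5 (56.7 and 61.5%) had -0.26 and -0.11. Over the 9 genes Pearson's r between GC content and log2 fold change was -0.65 before the correction and -0.30 after it, a description of genes that share all 6 libraries. The medians of all tested genes followed GC content too, with 0.32 among 2391 genes of 40 to 45% GC and -0.11 among 1823 genes of 55 to 60% GC. Among tested genes within 1 point of its own GC content the median was 0.25 for TXNRD1 (917 genes), 0.30 for PRDX3 (988 genes), 0.31 for TXN (981 genes) and 0.28 for TXNIP (965 genes). As deposited, TXNRD1 was thus well above genes of its GC content, PRDX3 less so, and TXN and TXNIP were slightly below theirs. After the GC and length correction TXN (0.19) was above and TXNIP (0.07) below the median of 0.12 among genes of 40 to 45% GC. In the values as deposited, the median within 1 point of GC content was 0.02 for PRDX1 (838 genes) and -0.11 for PRDX2 (739 genes). Both lay farther from 0 than genes like them in GC content, in opposite directions. For PRDX6 this median was 0.23 (885 genes) against its own 0.01. What sets the GC slope of the libraries was not tested, and the correction can also remove part of a real difference.

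**Figure D4:**
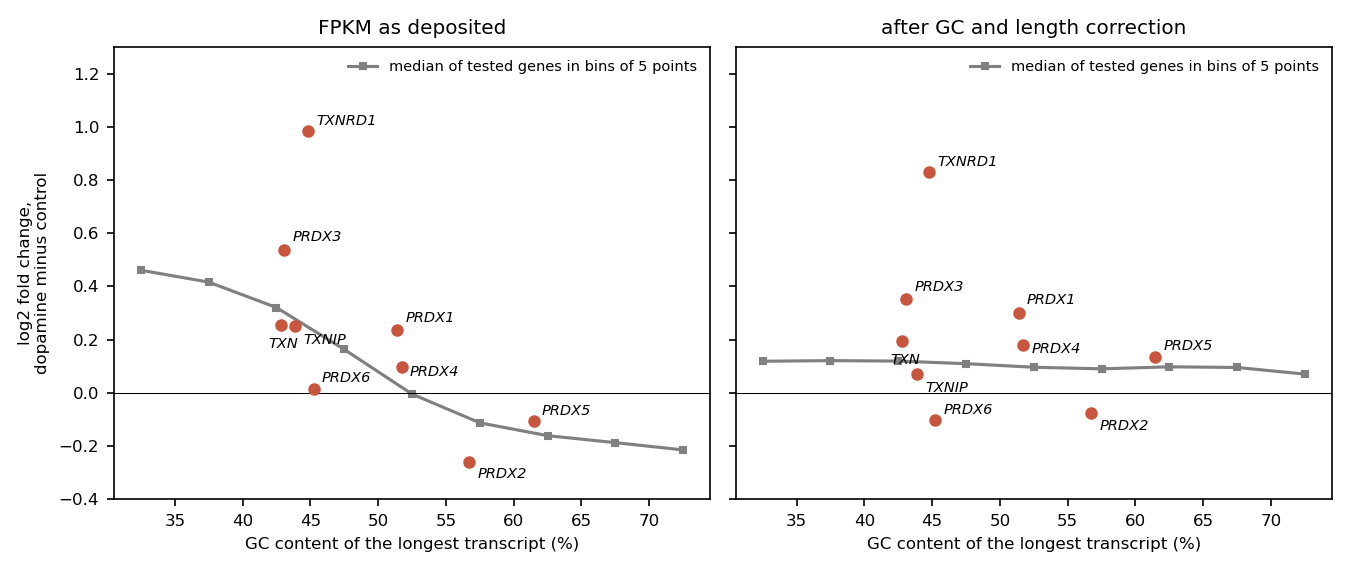
Log2 fold change, dopamine minus control (vertical axis), against GC content of the longest transcript (horizontal axis, percent) for the 9 tested members (red) and for the median of all tested genes in bins of 5 points (grey), as deposited on the left and after the correction on the right. The grey line falls from 0.46 to -0.22 on the left and runs between 0.07 and 0.12 on the right, with TXNRD1 above it in both.

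Other genes of thiol and peroxide metabolism were counted from lists by function. Of 76 listed genes 69 were tested, 2 rose and none fell in limma, against 0.102% of all tested genes, while with an unadjusted p under 0.05 there were 28 higher and 4 lower genes, against 24.4% and 8.05% of all tested genes. Their median log2 fold change was 0.14, and 0.13 after the GC and length correction, against 0.08 and 0.10 for all tested genes. Both genes that rose are NRF2 targets, GCLM of glutathione synthesis (log2 fold change 1.25, adjusted p = 0.00626, limma) and HMOX1, the heme oxygenase gene (3.69, adjusted p = 6.06e-07, limma). After the correction SLC7A11 and OSGIN1 passed as well, in a setting where 0.291% of all tested genes passed.

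Among 10 other thioredoxins and reductases, which include the mitochondrial pair TXN2 and TXNRD2, none passed in limma and 3 had an unadjusted p under 0.05, with a median of 0.07, or 0.03 after the correction. Such a p was seen in 32.5% of all tested genes, 24.4% as higher and 8.05% as lower, which is the background for each list. TXNDC9 and TXNDC12, thioredoxin-like genes, had log2 fold changes of 0.60 and 0.35 (adjusted p = 0.11 for both), and 0.39 and 0.29 after the correction. None of 4 glutaredoxins, small reductases that use glutathione, passed in limma, and 1 had an unadjusted p under 0.05 (GLRX, 0.46, adjusted p = 0.11, and 0.31 after the correction). The median of the 4 was 0.14, and -0.10 after the correction. GLRX3 stood at 0.17, and at 0.00 after the correction. Of 5 genes of glutathione synthesis and reduction GCLM rose and 4 had an unadjusted p under 0.05, all higher, with a median of 0.45, or 0.28 after the correction. SLC7A11, the cystine transporter gene, stood at 1.32, 1.28 and 0.777 FPKM in control and 2.60, 3.37 and 4.11 FPKM in dopamine libraries, apart but not past the threshold (log2 fold change 1.25, adjusted p = 0.0753, limma), and it had 0.88 and an adjusted p of 0.0106 after the correction.

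Of 9 glutathione peroxidases, catalase and superoxide dismutases none passed in limma, and 6 had an unadjusted p under 0.05, against 32.5% of all tested genes. Of these 6, 4 were higher, and the median of the 9 was 0.05, or 0.23 after the correction. GPX8 of the endoplasmic reticulum and catalase (CAT) had log2 fold changes of 0.63 and 0.48 (adjusted p = 0.11 for both), and 0.36 and 0.34 after the correction. Of 8 genes that supply NADPH, the electron source of thioredoxin reductase, none passed in limma. An unadjusted p under 0.05 was seen in 3 of them, all higher, against 24.4% of all tested genes. The median of the 8 was -0.04 and turned to 0.11 after the correction, near the 0.10 of all tested genes. IDH1 and ME1, which encode cytosolic NADPH-producing dehydrogenases, had 0.48 and 0.39, and 0.29 and 0.10 after the correction. Among 8 tested client genes of thioredoxin none passed in limma and 2 had an unadjusted p under 0.05, both subunit genes of ribonucleotide reductase, RRM1 at 0.46 and RRM2B at 0.66. Before the correction the median of all tested genes within 1 point of their GC content was 0.29 and 0.44. After the correction RRM1 and RRM2B stood at 0.26 and 0.31, where the median of all tested genes was 0.10.

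Among TXNIP's relatives, 4 alpha-arrestin genes were tested and none passed in limma. ARRDC4 and ARRDC3, which had an unadjusted p under 0.05 as did 32.5% of all tested genes, stood at 0.38 and 0.61 with overlapping groups. After the correction they stood at 0.18 and 0.28, with unadjusted p of 0.141 and 0.0738 (limma). The MondoA gene MLXIP and its partner MLX, known activators of TXNIP, stood at -0.11 and -0.04 and at 0.09 and 0.04 after the correction, neither with an unadjusted p under 0.05. Of 2 tested sestrin genes none passed in limma, with SESN1 at 0.34 (unadjusted p = 0.0364) and SESN2 at -0.20, and at 0.14 and 0.04 after the correction.

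Of 7 regulators in the NRF2 pathway none passed in limma and 2 had an unadjusted p under 0.05. Such a p was seen in 32.5% of all tested genes, 24.4% as higher and 8.05% as lower, also the background for the 2 lists that follow. NFE2L2, which encodes NRF2 itself, had a log2 fold change of 0.54 and BACH1, a repressor at the same elements, 0.61 (adjusted p = 0.113 and 0.11, limma), and 0.41 and 0.30 after the correction. Of 7 tested further NRF2 targets HMOX1 rose, 5 had an unadjusted p under 0.05, all higher, and the median was 0.33, or 0.24 after the correction. OSGIN1 stood at 4.66, 5.77 and 5.94 FPKM in control and 9.36, 9.25 and 7.48 FPKM in dopamine libraries (log2 fold change 0.63, adjusted p = 0.11, limma), and had 0.90 with an adjusted p of 0.00161 after the correction. Thioredoxin reductase needs selenocysteine, and of 3 tested genes for its incorporation none passed in limma, with SEPHS2 at 0.22 and SECISBP2 at 0.42, and all 3 had an unadjusted p under 0.05, 2 of them higher. After the correction SEPHS2 stood at 0.29 and SECISBP2 at 0.17.

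**Figure D5:**
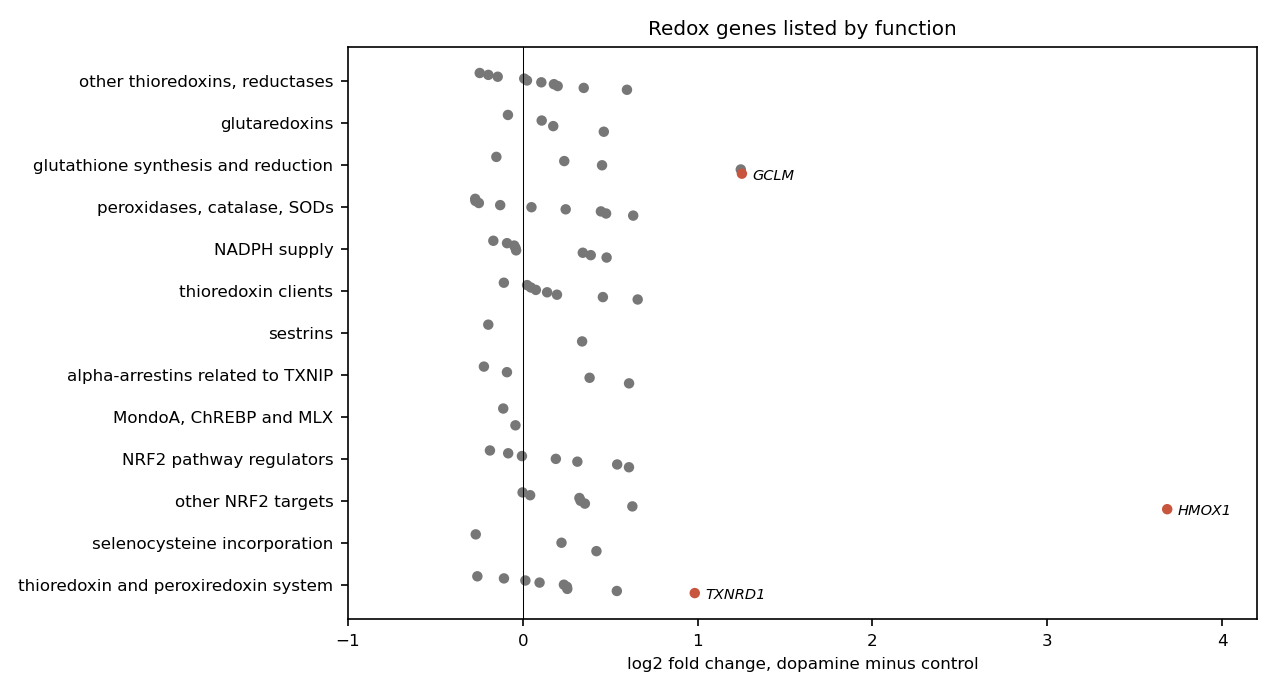
Log2 fold change, dopamine minus control (horizontal axis), of each tested gene (points) in 12 lists of redox genes and, at the bottom, the 9 tested members, with genes past the adjusted threshold in red. HMOX1 (3.69), GCLM (1.25) and TXNRD1 (0.98) are the red points.

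Likeness to TXNRD1 was measured over the 6 libraries by Pearson's r of log2 values among 10266 other protein-coding genes. Among the most similar were CTH and SOSTDC1 (r = 0.998 each) and USP40 (0.996), with log2 fold changes of 0.41 to 0.75, none past the threshold (adjusted p = 0.11 for each, limma). CTH encodes a transsulfuration enzyme that yields cysteine, and stood at 1.20, 1.09 and 1.04 FPKM in control and 1.76, 1.77 and 2.13 FPKM in dopamine libraries. For TXNIP the most similar were PCDHB3 and THBS2 (r = 0.996 each), TPBG (0.993), RPN2 (0.992) and HSD17B7 (0.992). With 6 libraries such values are common: 15.5% of genes had r above 0.9 with TXNRD1 and 8.33% with TXNIP, and the points share library, depth and GC slope. Both groups enter each r, so for TXNRD1, whose groups lay apart, it includes the difference between dopamine and control.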

How the data were processed

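Gene-level RNA values of 6 samples were read from 1 table. The authors deposited FPKM for 26789 genes with hg19 coordinates. Among the tools in the submitters' processing notes, listed there without roles, were the aligner STAR (2.7.1a) and the counter HTSeq (0.11.2), beside DESeq2 (1.40.2), FastQC (0.11.9) and the hg19 build. Per the labels' protocols, ribosomal RNA was removed and libraries were stranded. Not given in the sources used here: the FPKM formula, annotation and strand setting. Overlapping genes and near-identical copies are therefore uncertain. FPKM divides by the library total, so a rise of abundant genes lowers the rest.

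Library totals came from FPKM steps of 2797 pseudogenes spanning 150 to 1500 bases, taken to have 1 exon: 92.2 to 94.1% of low values were whole fragments within 0.03. Values were analysed as log2(FPKM + 0.5), which understates changes of low genes, with a mean FPKM of at least 1, in limma 3.58.1 under R 4.3.3 (intensity trend, no replicate block). The GC and length correction (loess, span 0.5, GENCODE 29 longest transcript, matched by identifier or else symbol) covered 11679 genes. The test was run on simulated data with independent noise per gene and no GC slope, which does not cover the library differences described here. Replicate numbers were not used to pair the samples. The members, lists, tests and alternatives were chosen with earlier results of these data known. Named genes were the members, called genes of each list with the 2 smallest p per list, and the 5 most like TXNRD1 and TXNIP, of which 2 are not reported here. The Pearson r values are descriptions.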

Additional observations from a re-analysis of the deposited data

How the results depend on the processing

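The 21 alternatives changed the pseudocount, filter, scaling, prior variance, weights, block, GC and length correction or libraries used, and HMOX1 passed in all 21. Genes past the threshold numbered 12 as reported, 6 with no filter on low values, 27 after quantile normalization, 5 with no trend, 2706 with sample quality weights, 34 after the GC and length correction, 7 with both replicates numbered 3 left out, and 3 to 2177 when each library was left out in turn (3 without control replicate 2, 2177 without control replicate 1). Members past it numbered 1 as reported, 0 with no filter, 0 with no trend, 5 with sample quality weights (TXNRD1, TXNIP, PRDX1, PRDX2 and PRDX3, where 22.9% of all genes passed), and 0 to 3 when each library was left out (0 without control replicate 2 or 3 or dopamine replicate 1 or 3). Genes of the other redox lists numbered 2 as reported, 1 with no filter, 4 after quantile normalization, 25 with weights, 4 after the GC and length correction, and 1 to 18 when each library was left out. The cause of these changes was not tested.

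With a replicate block 3 genes, 0 members (TXNRD1 adjusted p = 0.228) and 1 listed gene passed, and with the block and the GC and length correction 37, 1 and 5. Deviations of same-numbered libraries had correlations of -0.20, 0.28 and -0.37 for numbers 1, 2 and 3. Only the second control library correlated best with its own number. With 3 libraries per group that also differ in GC slope, these correlations cannot decide whether same-numbered samples were handled together.

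Signs turned in 20 fits of log2 fold changes, of 7 genes, and in 3 of shares. After the GC and length correction, and equally with the block added, the log2 fold change was 0.136 for PRDX5, -0.102 for PRDX6, -0.0026 for GLRX3, 0.0417 for SESN2, 0.0897 for MLXIP, 0.0362 for MLX and -0.11 for TPBG. In those fits 77.6% of all genes were higher and their median was 0.10, so SESN2, MLXIP and MLX turned to values below that median. PRDX6 was also -0.0761 after median-of-ratios scaling and -0.0305 to 0.0696 when each library was left out, and MLX was -0.104 (without dopamine replicate 2) to 0.0389 (without dopamine replicate 3) in those fits and 0.0451 with both replicates numbered 3 left out. In shares of the peroxiredoxin sum, dopamine minus control, PRDX5 turned from -2.49 to 0.91 percentage points and PRDX6 from 0.29 to -2.68 after the correction, PRDX6 lay between -0.11 and 0.88 when each library was left out, PRDX3 went from 1.04 to 0.48 after the correction, and PRDX2 from -2.74 to -1.68 with both replicates numbered 3 left out. TXN, TXNRD1, TXNIP, PRDX1, PRDX3 and PRDX4 stayed higher and PRDX2 lower in all 21 alternatives. The values of SRXN1 rest on 13 to 43 estimated fragments per library.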
